A study of Mus musculus with 16 samples.

Results

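The 2 metallothioneins Mt1 and Mt2, the transcription factor Mtf1 and 5 zinc transporters (Slc30a1, Slc30a10, Slc39a4, Slc39a8 and Slc39a14) were followed through mouse liver RNA sequencing of hepatic Tsc1 loss and ethanol feeding. The 8 genes were taken by symbol from a table of read counts per gene with 48051 rows that carry a symbol. All 8 were present and all 8 passed the filter on low counts. The series holds 16 liver libraries of strain C57BL/6J, 4 in each of 4 groups, all at 10 days. The groups are hepatic Tsc1 knockout mice under Gao-binge alcohol feeding (KO-EtOH), the same knockout on the control diet (KO-ctr), wild-type mice under Gao-binge alcohol feeding (WT-EtOH) and wild-type mice on the control diet (WT-ctr). Gao-binge feeding joins a period on an ethanol diet with a closing ethanol binge. The labels give neither the Cre driver and the excised part of Tsc1, nor age, nor whether the wild-type mice carried floxed alleles. They do not say that the 4 libraries of a group are separate animals, so the p-values rest on library-to-library spread that may be technical.

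Metallothioneins are small cysteine-rich proteins that bind zinc and copper in the cytosol, and the liver is a main site of their induction. MTF1 is the zinc-sensing transcription factor: it binds metal response elements in DNA and drives Mt1, Mt2 and the zinc exporter gene Slc30a1 when cytosolic zinc is high. SLC30 proteins carry zinc out of the cytosol and SLC39 proteins carry it in, and in the liver the importer gene Slc39a14 is an interleukin 6 target of the acute-phase response. Glucocorticoids and oxidative stress are further known inducers of the metallothioneins.

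Library totals ran between 14750420 and 21757100 reads counted in genes. Levels are in CPM, the counts of a gene divided by the library total in megareads after scaling by trimmed mean of M values. Differences are log2 ratios with their standard error from edgeR's quasi-likelihood test over 14346 genes, and a gene is called where the p-value adjusted by Benjamini-Hochberg is under 0.05. Tsc1 itself had 23.4, 16.8, 16.2 and 17.7 CPM in the KO-ctr libraries, against 24.3, 27.6, 24.9 and 29.7 CPM in the WT-ctr libraries. After ethanol it had 11.8, 14.9, 14.0 and 16.4 CPM in the KO-EtOH libraries, against 19.2, 19.8, 18.7 and 15.8 CPM in the WT-EtOH libraries. It was lower without overlap on the control diet (log2 difference -0.52, adjusted p = 0.0147) and lower with overlap after ethanol (-0.36, adjusted p = 0.0386). Tsc1 was also lower in WT-EtOH than in WT-ctr (-0.53, adjusted p = 0.00488, no overlap). WT-EtOH averaged 18.4 CPM and KO-ctr 18.5 CPM, so the Tsc1 level alone does not tell the genotypes apart. Hepatocyte markers summed to between 76047 and 159264 CPM in every library. KO-EtOH library 2 stood apart from its group (r = 0.965 with the rest), with the lowest hepatocyte sum and the highest sums of cholangiocyte markers (920 CPM) and of monocyte and macrophage markers (365 CPM). Library 3 of both control groups held the highest Mt1, Mt2 and Slc39a14 of its group, and the results that move most without these libraries are given below both ways.

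Mt1 and Mt2 lie side by side on chromosome 8 in GRCm38, Mt2 at chr8:94172664-94173568 and Mt1 at chr8:94179082-94180327, both on the plus strand with 5513 bases between them. Slc30a1 (chr1:191906767-191913247), Slc30a10 (chr1:185454848-185468762), Mtf1 (chr4:124802104-124849800) and Slc39a8 (chr3:135825279-135888572) are on the plus strand, and Slc39a4 (chr15:76612383-76617384) and Slc39a14 (chr14:70303469-70351425) on the minus strand. RefSeq promoter windows (build GRCm38.p6, 250 bases before to 50 bases after a start site) were matched for 6 of the 8 genes, with 2 windows for Slc39a8 and none for Slc39a4 and Slc39a14. The windows of the 3 genes known as MTF1 targets are printed because the metallothioneins carry the main result. Capitals mark the metal response element core, TGCACNC or TGCGCNC on either strand, where N is any base. The Mt1 window is chr8:94178839-94179138, the Mt2 window chr8:94172368-94172667 and the Slc30a1 window chr1:191906531-191906830, all on the plus strand.
Mt1: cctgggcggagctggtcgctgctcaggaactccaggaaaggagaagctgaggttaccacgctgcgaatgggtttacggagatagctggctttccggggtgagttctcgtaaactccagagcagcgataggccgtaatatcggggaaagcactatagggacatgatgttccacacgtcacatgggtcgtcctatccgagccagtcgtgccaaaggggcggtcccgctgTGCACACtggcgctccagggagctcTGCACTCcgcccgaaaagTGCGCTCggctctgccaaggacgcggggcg
Mt2: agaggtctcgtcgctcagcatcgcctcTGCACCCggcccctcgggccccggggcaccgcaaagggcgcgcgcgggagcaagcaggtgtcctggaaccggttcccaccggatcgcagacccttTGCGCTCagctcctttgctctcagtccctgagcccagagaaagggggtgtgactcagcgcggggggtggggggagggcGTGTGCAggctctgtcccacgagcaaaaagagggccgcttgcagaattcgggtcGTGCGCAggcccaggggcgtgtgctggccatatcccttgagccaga
Slc30a1: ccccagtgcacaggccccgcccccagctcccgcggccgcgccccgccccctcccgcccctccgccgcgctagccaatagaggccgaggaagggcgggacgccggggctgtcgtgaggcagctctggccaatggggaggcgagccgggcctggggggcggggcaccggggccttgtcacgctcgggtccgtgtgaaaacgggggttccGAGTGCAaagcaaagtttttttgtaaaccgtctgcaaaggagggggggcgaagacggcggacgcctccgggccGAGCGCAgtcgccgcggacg

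The core was found 3 times in the Mt1 window, 4 times in the Mt2 window and 2 times in the Slc30a1 window. It was found 3 times in the Slc30a10 window, where 2 of the matches overlap on opposite strands, 1 time in the second Slc39a8 window and 0 times in the first Slc39a8 window and the Mtf1 window. Among 32851 promoter windows of the same length, 25.7% held at least 1 match and 1.97% held at least 3. The 3 Mt1 matches lay at positions -23 to -17, 2 to 8 and 20 to 26 from the window's start site, and the 4 Mt2 matches at -223 to -217, -128 to -122, -50 to -44 and 4 to 10. The antioxidant response element core TGACNNNGC, searched on both strands, was found 1 time in the windows of Mt2, Slc30a1 and the first of Slc39a8, and 12.4% of all windows held it. The palindromic STAT core TTCNNNGAA was found in none of the 7 windows of these genes and in 8.3% of all windows. The windows start from RefSeq: the annotated GENCODE starts of Mt1 lie 7 bases before and 122 and 152 bases after that start site, and those of Mt2 lie 46 and 242 bases after it. Those of Slc30a1 lie 14 bases before and 475 bases after it. Windows end 50 bases after the start site, so the starts at 122, 152, 242 and 475 lie outside them. Bases between the window end and those starts were not searched, and the match counts cover the RefSeq windows only.

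**Figure D1:**
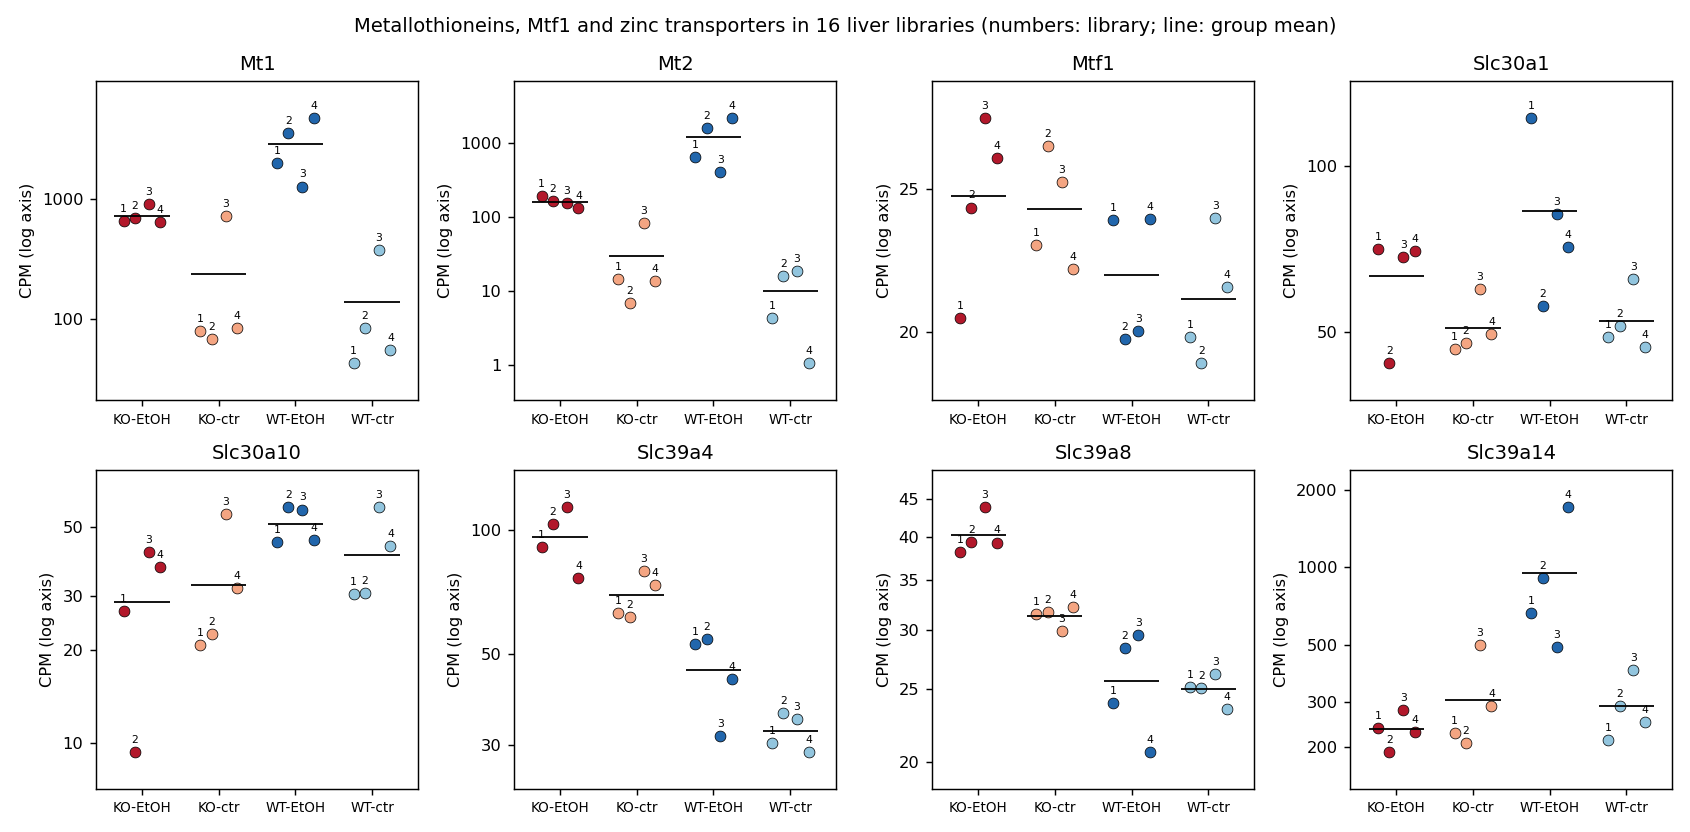
Level of each of the 8 genes (CPM, log axis) in the 16 libraries, with points numbered by library and a line at the group mean. The WT-EtOH points of Mt1 and Mt2 lie above all other groups, those of Slc39a14 lie above KO-EtOH and WT-ctr, and control library 3 lies above its group for Mt1.

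Ethanol in the wild-type liver went with higher metallothioneins and higher Slc39a14, whereas Tsc1 loss went with higher Slc39a4 and Slc39a8. In WT-EtOH against WT-ctr, 5 of the 8 genes were called, all higher (Mt1, Mt2, Slc39a14, Slc30a1 and Slc39a4), where 17.6% of all genes tested were higher and 15.9% lower. Ethanol in the knockout gave 1 call, Slc39a8, which was higher, where 7.00% of genes were higher and 7.11% lower. On the control diet, 2 of the 8 were called in KO-ctr against WT-ctr, Slc39a4 and Slc39a8, both higher, where 7.40% of genes were higher and 4.91% lower. In KO-EtOH against WT-EtOH, Slc39a4 and Slc39a8 were higher and Mt2 and Slc39a14 were lower, where 19.6% of genes were higher and 19.1% lower. The interaction, the ethanol response of the knockout minus that of the wild type, was called for 1 member, Slc39a14, where it was lower; 0.523% of genes were higher and 1.28% lower. In the interaction 4 of the 8 had an unadjusted p under 0.05, DESeq2 called 2 and voom 0.

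The median log2 difference of the 8 genes was 0.57 for ethanol in the wild type, against -0.00598 over all genes tested, and 0.34 for ethanol in the knockout, against 0.00340 over all genes. For Tsc1 loss it was -0.62 after ethanol, against -0.00896 over all genes, and 0.26 on the control diet, against 0.00602 over all genes. The medians mix genes that went up with genes that went down, as the named values below show. With DESeq2, 5 of the 8 genes were called for ethanol in the wild type, 3 for ethanol in the knockout, 5 for Tsc1 loss after ethanol and 2 on the control diet, and with voom 5, 4, 4 and 2. Upper quartile scaling moved the share of higher genes among all called genes to 61.8% after ethanol between genotypes, against 50.6% with the scaling used here, and to 41.8% against 52.5% for ethanol in the wild type.

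**Figure D2:**
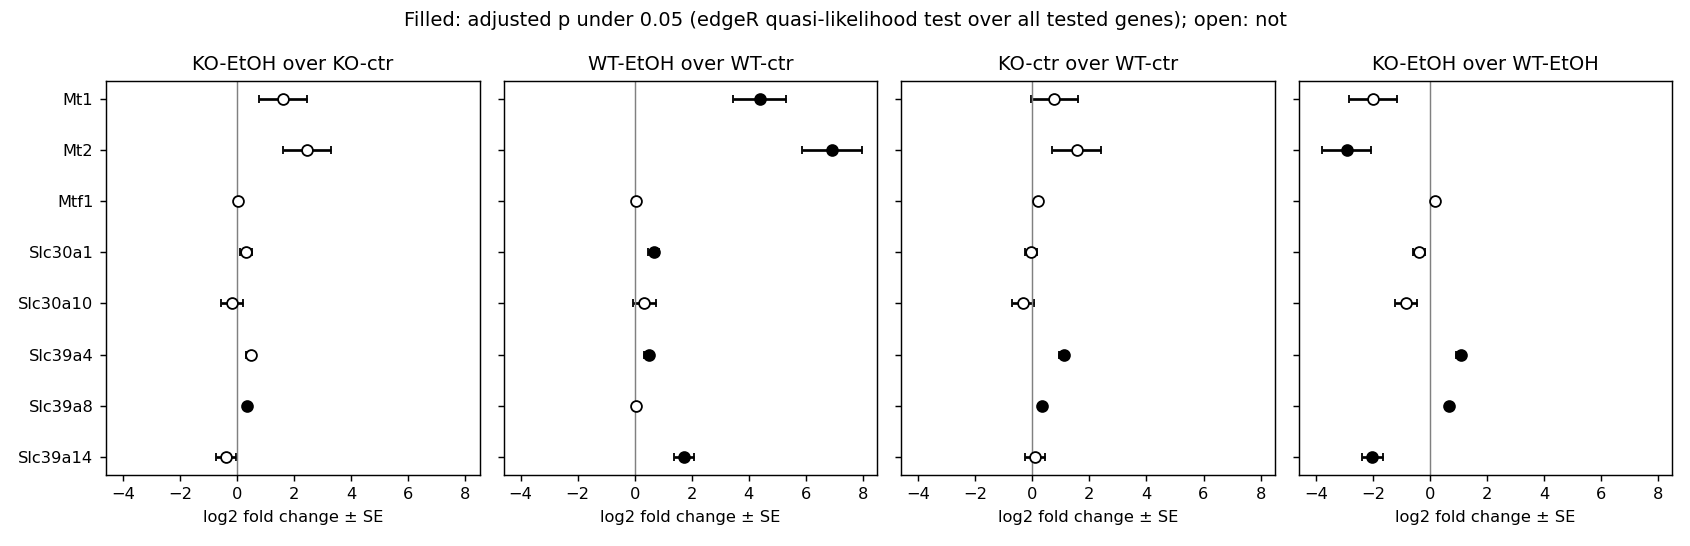
Log2 difference ± SE of the 8 genes in the 4 pairwise comparisons, with filled points where the adjusted p is under 0.05. Mt2 lies farthest from 0 for ethanol in the wild type (6.92) and for Tsc1 loss after ethanol (-2.92).

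Mt1, the more abundant metallothionein by read count, had 651, 689, 904 and 644 CPM in the KO-EtOH libraries, 79.5, 68.1, 718 and 83.7 CPM in the KO-ctr libraries, 1991, 3549, 1269 and 4755 CPM in the WT-EtOH libraries and 42.3, 83.9, 374 and 54.4 CPM in the WT-ctr libraries. Every WT-EtOH library lay above every library of the other 3 groups, the KO-EtOH libraries sat close together, and library 3 was the highest of both control groups. In WT-EtOH against WT-ctr, Mt1 rose 20.8-fold by the ratio of group means and by 4.38 ± 0.93 on the log2 scale (adjusted p = 0.00274). Without WT-ctr library 3 this difference was 5.58 (adjusted p = 0.00103). In KO-EtOH against KO-ctr the difference was 1.61 ± 0.83 and was not called (adjusted p = 0.215), with KO-ctr library 3 above 3 of the 4 KO-EtOH libraries. It was called with voom (2.86, adjusted p = 0.0207) and without KO-ctr library 3 (3.23, adjusted p = 0.0140). In 22 of 25 other settings this difference stayed uncalled, with adjusted p up to 0.411.

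Between genotypes, Mt1 averaged 722 ± 123 CPM in KO-EtOH and 2891 ± 1565 CPM in WT-EtOH libraries (SD over libraries, n = 4 each). The groups did not overlap, and the log2 difference of -2.0 ± 0.84 missed the threshold (adjusted p = 0.0746). It was called with DESeq2 (adjusted p = 0.0437), in a fit of the 2 groups alone (0.00530), without KO-ctr library 3 (0.0201) and without WT-ctr library 3 (-1.99, 0.0429). In 19 of 25 other settings this difference stayed uncalled, with adjusted p up to 0.279. On the control diet Mt1 averaged 237 ± 320 CPM in KO-ctr and 139 ± 158 CPM in WT-ctr libraries, a log2 difference of 0.77 ± 0.82 (adjusted p = 0.601) that was -0.85 without KO-ctr library 3. In whole liver, fewer cells of a type and less RNA per cell cannot be told apart.

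Mt2, the neighbouring metallothionein, had 191, 167, 154 and 133 CPM in the KO-EtOH libraries, 14.3, 6.80, 83.5 and 13.5 CPM in the KO-ctr libraries, 644, 1614, 405 and 2207 CPM in the WT-EtOH libraries and 4.34, 16.1, 18.9 and 1.04 CPM in the WT-ctr libraries. The 2 ethanol groups lay above both control groups without overlap, and WT-EtOH lay above KO-EtOH without overlap. In WT-EtOH against WT-ctr, Mt2 rose 121-fold by the ratio of group means and by 6.92 ± 1.05 on the log2 scale (adjusted p = 0.000261), or by 7.90 with voom (adjusted p = 8.15e-05). The lowest value, in WT-ctr library 4, rested on 18 counts. In KO-EtOH against WT-EtOH, Mt2 fell by 2.92 ± 0.86 on the log2 scale (adjusted p = 0.0163), a call that ended without WT-EtOH library 4 (-2.45, adjusted p = 0.0501) and without KO-EtOH libraries 1 and 2 (-3.08, adjusted p = 0.101).

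In KO-EtOH against KO-ctr, Mt2 differed by 2.45 ± 0.85 without overlap and was not called (adjusted p = 0.0717). It was called with DESeq2 (adjusted p = 0.0261), with voom (3.43, adjusted p = 0.00387) and without KO-ctr library 3 (3.80, adjusted p = 0.0121). In 21 of 25 other settings this difference stayed uncalled, with adjusted p up to 0.187. On the control diet the difference between genotypes was 1.55 ± 0.85 (adjusted p = 0.272), and 0.19 without KO-ctr library 3 (adjusted p = 0.914). The interaction was -2.78 ± 1.17 for Mt1 (adjusted p = 0.219) and -4.47 ± 1.21 for Mt2 (adjusted p = 0.0748), and DESeq2 called the value for Mt2 (adjusted p = 0.00910). With 1 control library 3 left out at a time, the interaction was -1.15 without KO-ctr library 3 and -3.96 without WT-ctr library 3 for Mt1 (adjusted p = 0.536 and 0.0942), and -3.11 and -4.94 in the same settings for Mt2 (adjusted p = 0.148 and 0.0857). Of 75-base stretches in Mt2 exons, 30.2% are shared with the antisense gene Gm45774, which averaged 5.16 CPM in KO-EtOH, 0.626 in KO-ctr, 22.3 in WT-EtOH and 0.206 in WT-ctr. The strand setting of the counting is not given in the sources used here, so reads of the 2 cannot be told apart there, and Mt1 and Mt2 shared no 75-base stretch.

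Without library 3 of both control groups, a setting chosen after seeing the data, both metallothioneins were called for ethanol in the knockout, Mt1 at 3.23 (adjusted p = 0.000502) and Mt2 at 3.80 (adjusted p = 0.0132). For ethanol in the wild type Mt1 was then at 5.58 (adjusted p = 6.07e-06) and Mt2 at 7.40 (adjusted p = 0.000243), and Mt1 was called lower in KO-EtOH than in WT-EtOH (adjusted p = 0.000667). The interaction was still not called, at -2.36 for Mt1 (adjusted p = 0.0793) and -3.60 for Mt2 (adjusted p = 0.147). Members called for ethanol in the knockout were then 2, Mt1 and Mt2, and the call for Slc39a8 ended.

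The balance of the 2 metallothioneins was lowest in WT-EtOH livers. Counts of Mt1 per count of Mt2 were 3.42, 4.14, 5.86 and 4.86 in KO-EtOH libraries, 5.57, 10.0, 8.6 and 6.20 in KO-ctr libraries, 3.09, 2.20, 3.14 and 2.15 in WT-EtOH libraries and 9.76, 5.22, 19.9 and 52.1 in WT-ctr libraries. The 52.1 of WT-ctr library 4 rested on 18 Mt2 counts. The 30.2% of 75-base stretches that Mt2 shares with Gm45774 is a further limit of this ratio. The WT-EtOH libraries were the lowest of the 4 groups, and KO-EtOH overlapped KO-ctr by 1 library. The log2 ratio differed by -2.54 in WT-EtOH against WT-ctr and by 0.78 in KO-EtOH against WT-EtOH (both exact two-sided permutation p = 0.0286, the smallest that 4 against 4 libraries allow, and adjusted over 4 comparisons 0.0571). It differed by -0.72 in KO-EtOH against KO-ctr (exact permutation p = 0.0571, adjusted 0.0762) and by -1.04 in KO-ctr against WT-ctr (exact permutation p = 0.286, adjusted 0.286). None of the 4 passed the adjusted threshold. The 2 at the smallest possible p could not have passed it unless a further comparison had reached that p as well. A ratio shows unequal change and not which of the genes changed.

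**Figure D3:**
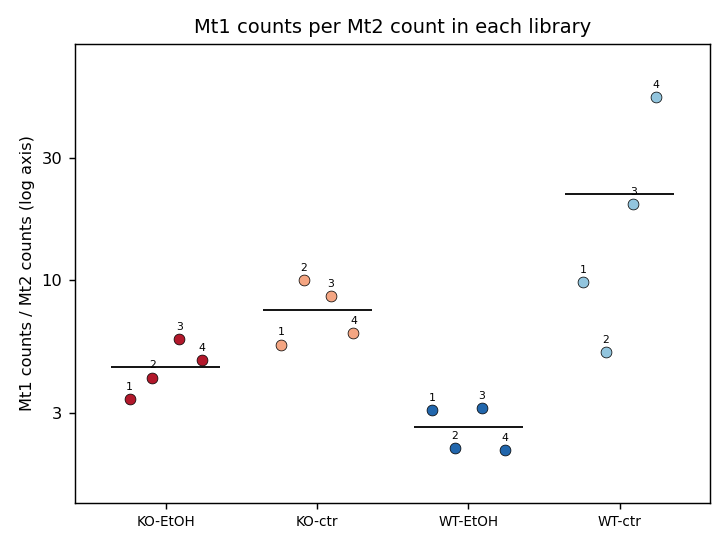
Counts of Mt1 per count of Mt2 in each library (log axis). The 4 WT-EtOH libraries lie between 2.15 and 3.14, below the 4 WT-ctr libraries, which lie between 5.22 and 52.1. The 52.1, in WT-ctr library 4, rests on 18 Mt2 counts.

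The other metallothioneins were close to absent. Mt3, the brain form, had 2 counts over the 4 KO-EtOH libraries and 2 over the 4 WT-EtOH libraries. Mt4, the squamous epithelial form, had 2 and 8 counts in the same groups, and both genes had 0 counts in all 8 control libraries. Neither passed the filter for the test.

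Mtf1, which encodes the zinc sensor, was steady at the mRNA level. It ran between 20.5 and 27.9 CPM in KO-EtOH, between 22.1 and 26.7 in KO-ctr, between 19.8 and 23.9 in WT-EtOH and between 19.1 and 23.9 in WT-ctr libraries. All 4 groups overlapped. The log2 differences were 0.03 ± 0.11 for ethanol in the knockout, 0.06 ± 0.11 for ethanol in the wild type, 0.18 ± 0.11 for Tsc1 loss after ethanol and 0.20 ± 0.11 on the control diet (adjusted p = 0.899, 0.744, 0.237 and 0.281). mRNA counts do not measure the metal binding or the nuclear entry through which MTF1 is known to act.

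Slc30a1 encodes the plasma-membrane zinc exporter ZnT1. It had 70.8, 43.9, 68.5 and 70.2 CPM in KO-EtOH libraries, 46.7, 47.8, 59.8 and 49.7 in KO-ctr libraries, 123, 55.9, 82.1 and 71.3 in WT-EtOH libraries and 49.1, 51.4, 62.5 and 46.9 in WT-ctr libraries. WT-EtOH library 1 was the highest of all, KO-EtOH library 2 the lowest, and each ethanol group overlapped its control group. Slc30a1 was 0.66 ± 0.20 higher on the log2 scale in WT-EtOH than in WT-ctr (adjusted p = 0.0184). The call ended without WT-EtOH library 1 (0.41, adjusted p = 0.080), WT-ctr library 1 (0.63, 0.0532) or WT-ctr library 4 (0.61, 0.0576). The difference was 0.31 ± 0.20 in KO-EtOH against KO-ctr (adjusted p = 0.316), -0.39 ± 0.20 in KO-EtOH against WT-EtOH (0.135, and -0.53 with 0.0420 without WT-EtOH library 2) and -0.04 ± 0.20 in KO-ctr against WT-ctr (0.925).

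Slc30a10 encodes a transporter of the same family that exports manganese. It had 26.8, 9.36, 41.5 and 37.3 CPM in KO-EtOH libraries, 20.7, 22.6, 55.3 and 31.8 in KO-ctr libraries, 44.7, 58.4, 57.1 and 45.6 in WT-EtOH libraries and 30.4, 30.6, 58.4 and 43.6 in WT-ctr libraries. KO-EtOH lay wholly below WT-EtOH, with KO-EtOH library 2 the lowest of all 16, and library 3 was the highest of 3 groups. The difference between KO-EtOH and WT-EtOH was -0.84 ± 0.39 and was not called (adjusted p = 0.106). The other differences were -0.18 ± 0.39 for ethanol in the knockout (adjusted p = 0.798), 0.34 ± 0.39 for ethanol in the wild type (0.536) and -0.32 ± 0.39 for Tsc1 loss on the control diet (0.660).

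Slc39a14 encodes ZIP14, the importer through which hepatocytes take up zinc, manganese and non-transferrin iron. It had 238, 191, 279 and 228 CPM in KO-EtOH libraries, 227, 207, 497 and 288 in KO-ctr libraries, 665, 908, 489 and 1725 in WT-EtOH libraries and 214, 289, 399 and 249.5 in WT-ctr libraries. Each WT-EtOH library lay above every KO-EtOH and WT-ctr library, and KO-EtOH overlapped KO-ctr. Slc39a14 rose by 1.72 ± 0.36 on the log2 scale in WT-EtOH against WT-ctr (adjusted p = 0.00201). It differed by -0.38 ± 0.35 in KO-EtOH against KO-ctr (adjusted p = 0.498, and -0.043 with 0.951 without KO-ctr library 3), and in KO-EtOH against WT-EtOH it fell by 2.02 ± 0.36 (adjusted p = 0.000652). On the control diet the genotypes differed by 0.08 ± 0.35 (adjusted p = 0.910), and by -0.26 without KO-ctr library 3 (adjusted p = 0.710).

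The ethanol response of Slc39a14 differed between the genotypes by -2.10 ± 0.50 (adjusted p = 0.0454). Among 24 other settings 21 ended this call, with values between -2.30 and -1.58 and adjusted p between 0.00116 and 0.131. They include leaving out any 1 library other than WT-EtOH library 3, whose removal gave an adjusted p of 0.0183. The calls for ethanol in the wild type and for Tsc1 loss after ethanol held in all 25 settings, with adjusted p up to 0.00916 and 0.0162.

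Slc39a4 encodes ZIP4, known as the intestinal zinc importer that is faulty in acrodermatitis enteropathica. It had 91.0, 103, 114 and 76.5 CPM in KO-EtOH libraries, 63.0, 61.5, 79.3 and 73.7 in KO-ctr libraries, 52.8, 54.4, 31.6 and 43.6 in WT-EtOH libraries and 30.4, 35.9, 34.8 and 28.9 in WT-ctr libraries. The knockout libraries lay above the wild-type libraries on both diets without overlap. Slc39a4 was higher by 1.08 ± 0.16 in KO-EtOH against WT-EtOH (adjusted p = 0.000108) and by 1.09 ± 0.16 in KO-ctr against WT-ctr (adjusted p = 0.000387), and both calls held in all 25 other settings. The interaction was -0.02 ± 0.22 (adjusted p = 0.979).

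With ethanol, Slc39a4 differed by 0.49 ± 0.16 in the wild type (adjusted p = 0.0265) and by 0.47 ± 0.16 in the knockout (adjusted p = 0.0552), and in each genotype the ethanol and control libraries overlapped. The wild-type call ended without WT-EtOH library 1 (0.41, adjusted p = 0.0830), WT-EtOH library 2 (0.39, 0.0816), WT-ctr library 1 (0.46, 0.0661) or WT-ctr library 4 (0.43, 0.0776) and with upper quartile scaling (0.41, 0.0590). The knockout difference was called in 8 of 25 settings, among them with DESeq2 (adjusted p = 0.0307), with voom (0.0227) and without KO-EtOH library 4 (0.57, 0.0376), WT-EtOH library 2 (0.48, 0.0474) or WT-EtOH library 3 (0.48, 0.0219).

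Slc39a8 encodes ZIP8, an importer of zinc and manganese. It had 38.3, 39.4, 44.0 and 39.4 CPM in KO-EtOH libraries, 31.5, 31.8, 29.9 and 32.2 in KO-ctr libraries, 24.0, 28.4, 29.6 and 20.6 in WT-EtOH libraries and 25.1, 25.1, 26.2 and 23.6 in WT-ctr libraries. KO-EtOH lay above every other group, and KO-ctr lay above WT-ctr without overlap. Slc39a8 was higher by 0.65 ± 0.10 in KO-EtOH against WT-EtOH (adjusted p = 0.000169), a call that held in all 25 other settings. It was higher by 0.36 ± 0.10 in KO-EtOH against KO-ctr (adjusted p = 0.0267), and differed by 0.04 ± 0.10 in WT-EtOH against WT-ctr (adjusted p = 0.821). The interaction was 0.32 ± 0.14 and was not called (adjusted p = 0.234).

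The ethanol call for Slc39a8 in the knockout ended in 7 of 25 settings: without any 1 of the 4 KO-ctr libraries or KO-EtOH library 3 (adjusted p = 0.0551 to 0.0752), with no filter on low counts (0.0640) and without library 3 of both control groups (0.0743). Slc39a8 was also higher by 0.33 ± 0.10 in KO-ctr against WT-ctr (adjusted p = 0.0456), a call that ended in 16 of 25 settings. These include leaving out any 1 of the 8 control libraries, KO-EtOH library 1 or 4, or WT-EtOH library 1 (adjusted p = 0.0505 to 0.122), with values between 0.30 and 0.37 in all settings.

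Per kilobase of exon, the order of the 8 genes in WT-ctr livers was Mt1 (111 RPKM), Slc39a14 (27.3), Mt2 (17.1), Slc39a4 (10.5), Slc30a1 (10.0), Slc30a10 (6.98), Slc39a8 (3.26) and Mtf1 (2.37). Neighbours in this order overlapped between libraries from Mt1 down to Slc30a10, whereas Slc30a10, Slc39a8 and Mtf1 did not overlap. In WT-EtOH livers Mt1 (2320 RPKM) and Mt2 (2070) stood far above Slc39a14 (89.7), and in KO-EtOH livers Mt1 (580) and Mt2 (274) did so above Slc39a4 (31.0), which there exceeded Slc39a14 (22.2). One annotated Mt1 transcript keeps the introns, so its exon length of 1246 bases is the whole gene and these values understate Mt1 relative to the others.

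The remaining zinc transporters gave calls in both directions. Of 8 other Slc30 exporters 6 were tested: Slc30a9 was lower in KO-EtOH than in WT-EtOH (-0.47, adjusted p = 0.000668) and Slc30a3, a vesicular transporter, was lower in WT-EtOH than in WT-ctr (-1.24, adjusted p = 0.0316). In the knockout, ethanol gave 0 calls among the 6 with edgeR, where 3 had an unadjusted p under 0.05, against 0 with DESeq2 and 1 with voom. Of 11 other Slc39 importers 10 were tested. In WT-EtOH against WT-ctr, Slc39a6 (0.77) and Slc39a13 (0.37) were higher and Slc39a2 (-1.76) and Slc39a9 (-0.49) were lower, with adjusted p between 0.000518 and 0.0303, where 17.6% of all genes were higher and 15.9% lower. Ethanol in the knockout gave 1 call among the 10, Slc39a13 (0.46, adjusted p = 0.0216), where 7.00% of all genes were higher.

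Between genotypes after ethanol, Slc39a11 was higher (0.31, adjusted p = 0.0300) and Slc39a3 (-0.40, 0.0343), Slc39a6 (-0.80, 0.0214) and Slc39a10 (-0.57, 0.0475) were lower, so that 1 of the 10 was higher and 3 were lower where 19.6% of all genes were higher and 19.1% lower. On the control diet Slc39a2 (-1.08, adjusted p = 0.0272) and Slc39a9 (-0.33, 0.0337) were lower in the knockout, where 4.91% of all genes were lower. The list medians stayed between -0.21 and 0.13 in these 4 comparisons for both families, near the medians of all genes. Without library 3 of both control groups the calls for Slc39a2 and Slc39a9 on the control diet ended, and for ethanol in the wild type 2 of the 10 were called, both lower.

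**Figure D4:**
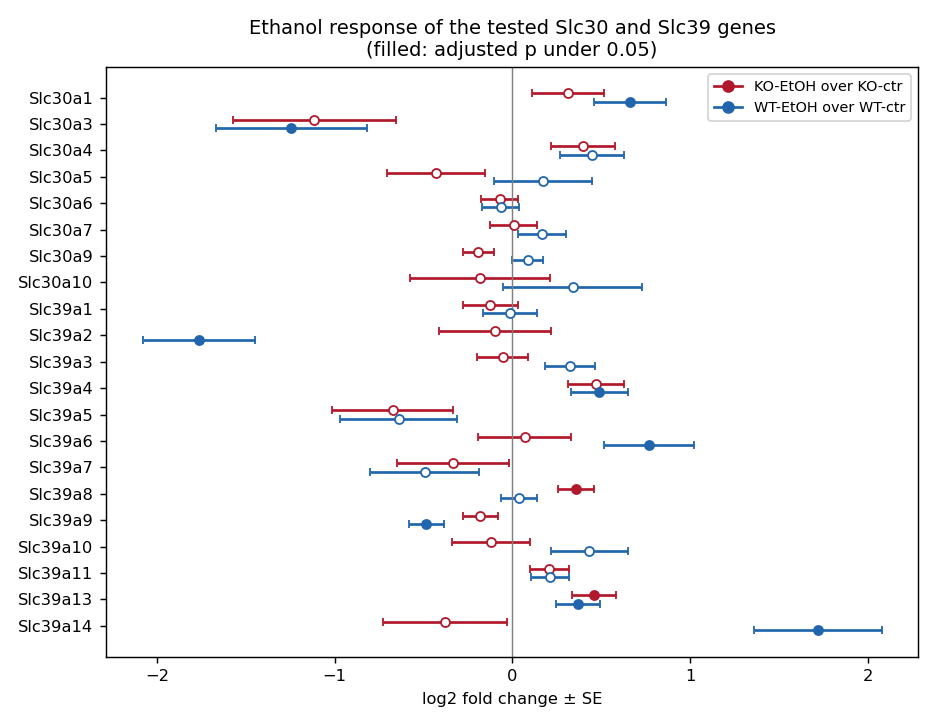
Ethanol log2 difference ± SE of each tested Slc30 and Slc39 gene, in the knockout (red, upper point) and the wild type (blue, lower point). Slc39a14 lies farthest to the right in the wild type (1.72) and Slc39a2 farthest to the left (-1.76).

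Of 6 further genes known as MTF1 targets, 5 were tested and 1 or more were called in 3 of the 4 pairwise comparisons. None was called for ethanol in the wild type by edgeR, 2 had an unadjusted p under 0.05, and DESeq2 called 0 and voom 1. Between genotypes after ethanol, the selenoprotein gene Selenow (0.79, adjusted p = 0.000145), Csrp1 (0.94, 0.0109) and Gclc, the catalytic subunit of glutathione synthesis (0.87, 0.0405), were higher. The importer gene Slc39a10, which MTF1 is known to repress, was lower (-0.57, 0.0475). Selenow was also higher in KO-ctr than in WT-ctr (0.77, adjusted p = 0.000745), and Csrp1 was higher in KO-EtOH than in KO-ctr (0.91, adjusted p = 0.0305). These counts of 5 genes stand beside 19.6% higher and 19.1% lower over all genes between genotypes after ethanol. Higher genes made up 7.40% between genotypes on the control diet and 7.00% for ethanol in the knockout.

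Copper handling genes were set beside the members because metallothioneins also bind copper. In WT-EtOH against WT-ctr, 5 of the 12 tested were lower and 1 was higher. The lower ones included the copper importer gene Slc31a1 (-0.69, adjusted p = 0.000232), the SOD1 chaperone gene Ccs (-0.77, 0.00101) and Sco1 (-0.65, 0.00131), and the higher one was Steap4 (1.89, 0.0175), a metalloreductase gene named here after its value was seen. With ethanol in the knockout, 3 were lower, among them Ccs (-0.95, 0.000977) and Sod1 (-0.49, 0.0292), and the copper chaperone gene Atox1 was higher (0.51, 0.0112). After ethanol the knockout had 4 higher and 3 lower than the wild type, with Sod1 at -1.0 (8.22e-05), Slc31a2 at 0.77 (0.000430) and Slc31a1 at 0.57 (0.000972). In KO-ctr against WT-ctr, 2 were higher and 1 was lower. Shares over all genes, higher then lower, were 17.6% and 15.9% for ethanol in the wild type and 7.00% and 7.11% in the knockout. Between genotypes they were 19.6% and 19.1% after ethanol and 7.40% and 4.91% on the control diet. With 12 genes, the counts between genotypes are not read as a result about the list.

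Known inducers of metallothionein were read through 3 gene lists. Their counts stand beside the shares over all genes tested, given as higher then lower. These shares were 17.6% and 15.9% for ethanol in the wild type and 7.00% and 7.11% in the knockout. For Tsc1 loss they were 19.6% and 19.1% after ethanol and 7.40% and 4.91% on the control diet. For the interaction they were 0.523% and 1.28%. Among 13 glucocorticoid receptor targets, 10 were higher in WT-EtOH than in WT-ctr and none was lower (0 also with DESeq2, with voom and at an unadjusted p under 0.05), with a median of 1.58. They included Ddit4, an mTORC1 inhibitor gene (5.23, adjusted p = 2.20e-07), Cebpd (2.75, 7.29e-07) and Tat, the tyrosine aminotransferase gene (2.49, 2.91e-06), while Pck1 differed by 0.40 (0.372). Ethanol in the knockout gave 4 higher with a list median of 0.55, among them Ddit4 (1.39, 0.00468), Tat (0.90, 0.0169) and Fkbp5 (1.57, 0.0296). After ethanol, 7 were lower in the knockout than in the wild type with a median of -1.13, among them Cebpd (-1.82, 1.63e-05), Tat (-1.43, 0.000240) and Ddit4 (-1.58, 0.000477). The interaction was called lower for Ddit4 (-3.84, 0.000917), Cebpd (-2.08, 0.00444) and Tat (-1.58, 0.0260), and on the control diet 1 target, Ddit4, was higher in the knockout (2.26, 0.000247). Without library 3 of both control groups, 10 were higher for ethanol in the wild type (median 1.40), 2 for ethanol in the knockout (median 0.24), and 9 were lower for Tsc1 loss after ethanol.

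Among 19 interleukin 6 and STAT3 acute-phase genes, 8 were higher in WT-EtOH than in WT-ctr, with a list median of 1.12, where 17.6% of all genes were higher. They included Il6ra, the receptor subunit gene (0.85, adjusted p = 0.00127), Orm1 (1.74, 0.00428) and the lipocalin gene Lcn2 (5.52, 0.00975). With ethanol in the knockout edgeR called none, 5 had an unadjusted p under 0.05, and DESeq2 called 3 and voom 2, and the list median was -0.28. In KO-EtOH against WT-EtOH, 6 were lower, among them the haptoglobin gene Hp (-2.09, 0.00101), Il6ra (-0.79, 0.00202) and Stat3 (-1.05, 0.00569). In the same comparison 1 was higher, the hemopexin gene Hpx (0.89, 0.0496), named after its value was seen, where 19.1% of all genes were lower and 19.6% higher. For the interaction edgeR and voom called none of the 19, and DESeq2 called 2 lower. There 6 had an unadjusted p under 0.05, all lower, and the list median was -1.25. Between KO-ctr and WT-ctr edgeR and DESeq2 called none, voom called 2, and 2 had an unadjusted p under 0.05. Without library 3 of both control groups, 9 were higher for ethanol in the wild type (median 1.29), and 1 was higher for ethanol in the knockout, where the list median was 0.14.

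Among 15 NRF2 targets, the antioxidant and detoxification genes, 9 were higher and 1 was lower in WT-EtOH against WT-ctr (median 2.49), and 11 were higher in KO-EtOH against KO-ctr (median 2.24). Between genotypes 4 were higher in KO-EtOH than in WT-EtOH, where 19.6% of all genes were higher. Higher in KO-ctr than in WT-ctr were 2, where 7.40% of all genes were higher. The interaction was called for none of the 15 with edgeR, DESeq2 or voom, with 4 at an unadjusted p under 0.05, and its list median was -0.04. Without library 3 of both control groups 9 were higher for ethanol in the knockout, and the 2 calls on the control diet ended.

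**Figure D5:**
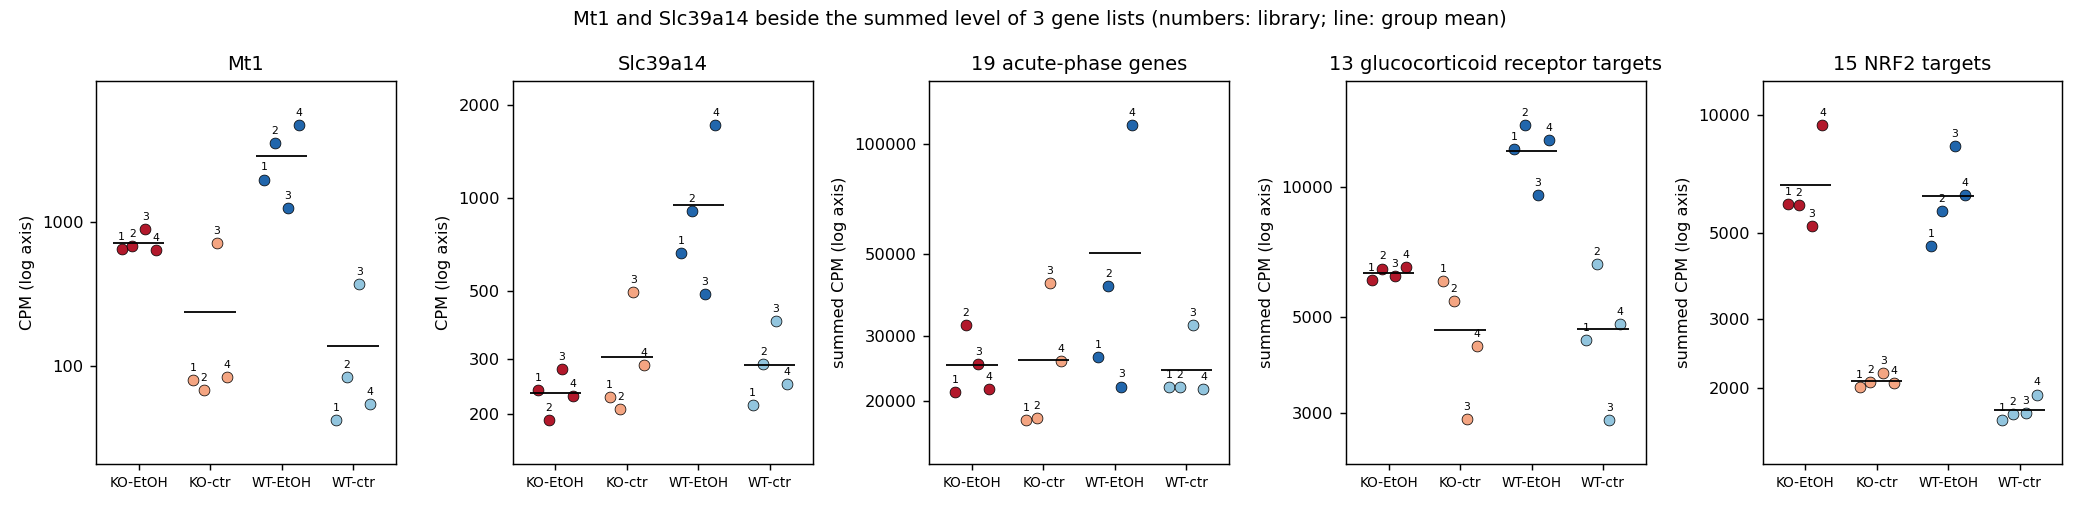
Mt1 and Slc39a14 (CPM) and the summed CPM of the acute-phase, glucocorticoid receptor and NRF2 lists in each library. The glucocorticoid sum lies between 9615 and 13906 CPM in WT-EtOH, above all other groups, and the NRF2 sum is high in both ethanol groups.

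The summed levels by library show where the lists and the members ran together. The glucocorticoid sum ran between 6096 and 6523 CPM in KO-EtOH, 2905 and 6083 in KO-ctr, 9615 and 13906 in WT-EtOH and 2902 and 6636 in WT-ctr libraries. The NRF2 sum ran between 5204 and 9414 CPM in KO-EtOH, 2011 and 2187 in KO-ctr, 4633 and 8342 in WT-EtOH and 1662 and 1927 in WT-ctr libraries. WT-EtOH thus stood apart in the glucocorticoid sum, and both ethanol groups stood apart in the NRF2 sum. The acute-phase sum was 26275, 41134, 21850 and 112411 CPM in WT-EtOH libraries 1 to 4, against 21769, 21742, 32175 and 21538 CPM in WT-ctr libraries 1 to 4. It ran between 21108.5 and 32090 CPM in KO-EtOH and 17751 and 41858 in KO-ctr libraries, so WT-EtOH overlapped each other group. Within WT-EtOH, Mt1, Mt2, Slc39a14 and this sum had the same order of libraries, with library 4 highest, then 2, 1 and 3. In both control groups library 3 was the highest in Mt1. It had the highest acute-phase sum (41858 CPM in KO-ctr and 32175 CPM in WT-ctr) and the lowest glucocorticoid sum. A sum rests mostly on the most abundant genes of its list, which for the glucocorticoid list are Pck1, Tat and Errfi1. The low sum therefore does not show that the less abundant glucocorticoid targets were low in library 3. Whether the lists and the members share a cause was not tested.

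Among markers of cell types other than hepatocytes, those of cholangiocytes, and after ethanol those of macrophages and Kupffer cells, moved most with genotype. After ethanol, stellate cell markers gave 3 higher and 2 lower of 9, and sinusoidal endothelial markers 2 higher of 8. Neutrophil markers gave 1 higher of 3, and lymphocyte markers 0 of 5 (2 with DESeq2). On the control diet edgeR called 1 endothelial marker higher, 1 lymphocyte marker lower and no stellate or neutrophil marker. Voom called 1 stellate marker there. Cholangiocyte markers summed to between 214 and 920 CPM in KO-EtOH, 302 and 565 in KO-ctr, 58.5 and 69.7 in WT-EtOH and 72.7 and 99.5 in WT-ctr libraries. Of 11 tested, 10 were higher in KO-EtOH than in WT-EtOH and 6 in KO-ctr than in WT-ctr, or 3 in KO-ctr without library 3 of both control groups. All marker counts between genotypes stand beside 19.6% higher and 19.1% lower over all genes after ethanol, and 7.40% and 4.91% on the control diet. The hepatocyte sum ran between 76047 and 134508 CPM in KO-EtOH, 84340 and 90689 in KO-ctr, 138264 and 159264 in WT-EtOH and 132019 and 148744 in WT-ctr libraries, and of 12 markers 4 were lower in the knockout after ethanol and 3 on the control diet.

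After ethanol, 9 of 10 monocyte and macrophage markers and 9 of 9 Kupffer cell markers were also higher in the knockout. On the control diet 1 of the 10 and 0 of the 9 were (2 and 0 with DESeq2, 7 and 1 with voom). With ethanol in the wild type, 7 of the 10 and 5 of the 9 were lower, and 1 of the 10 was higher. Over all genes 15.9% were lower there and 17.6% higher. With ethanol in the knockout, 1 of the 10 was higher, and edgeR called 0 of the 9, where 7.00% of all genes were higher and 7.11% lower. The monocyte and macrophage sum ran between 105 and 365 CPM in KO-EtOH, 101 and 134 in KO-ctr, 37.5 and 60.1 in WT-EtOH and 70.5 and 114 in WT-ctr libraries. S100a4 of this list was near the floor and was not tested. It had at most 8 counts in a library and 0 counts in 8 of the 16, among them all 4 WT-EtOH libraries. The Kupffer sum ran between 161 and 390 CPM in KO-EtOH, 196 and 304 in KO-ctr, 91.5 and 143 in WT-EtOH and 169 and 237 in WT-ctr libraries. The part of these cell types in the higher Slc39a4 and Slc39a8 and the lower Mt2 and Slc39a14 of the knockout was not tested.

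The genes whose log2 CPM followed a member most closely over the 16 libraries, among 10677 compared, are given as a description of libraries that share 4 groups. For Mt1 they were Map3k6 (Pearson r = 0.974), Mt2 (0.963), Sidt2 (0.949), the glucocorticoid target Fkbp5 (0.946) and Cda (0.943). Map3k6 averaged 9.83 CPM in KO-EtOH, 3.31 in KO-ctr, 31.3 in WT-EtOH and 2.12 in WT-ctr livers. Fkbp5 averaged 162 CPM in KO-EtOH, 54.6 in KO-ctr, 354 in WT-EtOH and 73.5 in WT-ctr livers.

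For Slc39a14 the closest were Smad1 (0.945), Il1r1 (0.945), Alkbh1 (0.940), Pcid2 (0.938) and Nos1ap (0.932). Il1r1, the interleukin 1 receptor gene, averaged 31.7 CPM in KO-EtOH, 52.3 in KO-ctr, 560 in WT-EtOH and 48.3 in WT-ctr livers, so that like Slc39a14 it was high in WT-EtOH livers. For Slc30a10 they were Clpx (0.883), Serpina3k (0.860), Fpgs (0.843), Xirp1 (0.838) and Cstf2t (0.826), all below the values of the other 3 members. For Slc39a4 they were Kctd17 (0.974), Chst14 (0.962), Stk10 (0.945), Setd7 (0.942) and Cln6 (0.941). Setd7 averaged 45.1 CPM in KO-EtOH, 32.4 in KO-ctr, 18.2 in WT-EtOH and 8.05 in WT-ctr livers, the same order of groups as Slc39a4.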

How the data were processed

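RNA of 16 liver libraries was sequenced. Per the submitters' processing notes, reads were handled with Trimmomatic 0.36, HISAT2 2.1.0 and HTSeq on GRCm38; the authors deposited whole-number read counts per gene, and the strand setting is not given in the sources used here. Rows without a symbol (0.227% to 0.479% of counts) were left out. Counts were fitted as 4 group means with edgeR 4.0.16 (R 4.3.3; filter on low counts, trimmed mean of M values, robust quasi-likelihood test, 12 residual degrees of freedom), with Benjamini-Hochberg adjustment over all 14346 genes in each of 5 contrasts. The fit was tested on simulated data that had the same dispersion for every gene and no outlying library. That check does not cover genes as uneven as Mt1 and Mt2 in the control groups. DESeq2 1.42.0, voom with sample quality weights (limma 3.58.1), other scalings, no filter, 2-group fits, a replicate block and left-out libraries were alternatives. Leaving out library 3 of both control groups was chosen after seeing the data. RPKM values used exon lengths from GENCODE M21. Members and gene lists were chosen with earlier results of these data known. All 8 members are named in every comparison; from the other zinc transporter lists every called gene may be named, and from each further list up to 3 called genes with the smallest p and 1 uncalled gene with the highest level.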

Additional observations from a re-analysis of the deposited data

Results flagged for a closer look

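In 36 groups of 4 libraries (the 8 genes and the Mt1 to Mt2 ratio in each of the 4 groups), 4 held a library whose gap to the others passed Dixon's 95% limit for 4 values; chance flags about 1 in 20 groups. Mt1 was at 718 CPM in KO-ctr library 3, against 68.1 to 83.7 CPM in the other 3, and at 374 CPM in WT-ctr library 3, against 42.3 to 83.9 CPM in the other 3. Mt2 was at 83.5 CPM in KO-ctr library 3, against 6.80 to 14.3 CPM in the other 3. Slc30a1 was at 43.9 CPM in KO-EtOH library 2, against 68.5 to 70.8 CPM in the other 3.

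The ethanol response of Slc39a14 differed between knockout and wild type by -2.10 on the log2 scale in the test of the difference itself (edgeR, adjusted p = 0.0454), a call that ended in 21 of 24 other settings. Over the 24 settings the adjusted p ran between 0.00116 and 0.131.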

How the results depend on the processing

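Of 992 values of single genes under other settings, 878 kept their direction and their side of the threshold, 54 lost a call, 24 gained one and 36 turned their direction, all 36 on values that were not called. The count of called members for Tsc1 loss on the control diet (2) was 1 under median-of-ratios scaling, upper quartile scaling, no filter on low counts, without KO-EtOH libraries 1 and 2 and without library 3 of both control groups, and 1 to 2 with each library left out. For ethanol in the knockout (1) it was 3 with DESeq2, 4 with voom, 2 with median-of-ratios scaling, in 2-group fits and without library 3 of both control groups, and 0 to 2 with each library left out. With each library left out it was 3 to 5 for ethanol in the wild type (5) and 3 to 5 for Tsc1 loss after ethanol (4). For the interaction (1) it was 2 with DESeq2, 0 with voom, upper quartile scaling, no filter, the replicate block, without KO-EtOH libraries 1 and 2 and without library 3 of both control groups, and 0 to 1 with each library left out.

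Over all genes, 1766 calls for Tsc1 loss on the control diet became 3554 with voom and 748 without library 3 of both control groups (1091 to 2167 with each library left out). For ethanol in the knockout 2024 became 3255 with voom (1114 to 2279). For the interaction 259 became 731 with DESeq2, 524 with voom, 116 without KO-EtOH libraries 1 and 2 and 34 without library 3 of both control groups (53 to 495). Left-out libraries gave 4887 to 5627 for Tsc1 loss after ethanol (5550) and 3890 to 5226 for ethanol in the wild type (4811). The share of higher genes among interaction calls was 48.7% with upper quartile scaling and 39.9% with DESeq2, against 29.0%.

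Turned directions were as follows. With voom, Slc39a14 was -0.085 for Tsc1 loss on the control diet, Slc30a10 0.19 for ethanol in the knockout and Mtf1 0.061 for the interaction. With upper quartile scaling, Mtf1 was -0.022 and Slc39a8 -0.040 for ethanol in the wild type, and the interaction was 0.052 for Mtf1 and 0.065 for Slc39a4. With each library left out, values that turned in at least 1 case ranged for Tsc1 loss on the control diet from -0.85 to 1.98 (Mt1), -0.26 to 0.28 (Slc39a14) and -0.13 to 0.052 (Slc30a1), for ethanol in the knockout from -0.40 to 0.20 (Slc30a10) and -0.028 to 0.11 (Mtf1), for ethanol in the wild type from -0.043 to 0.13 (Slc39a8), and for the interaction from -0.082 to 0.053 (Mtf1) and -0.14 to 0.088 (Slc39a4). Without KO-EtOH libraries 1 and 2, Slc30a10 was 0.27 for ethanol in the knockout and Mtf1 0.10 for the interaction. Without library 3 of both control groups, Slc39a14 was -0.057 for Tsc1 loss on the control diet, Slc30a10 0.20 for ethanol in the knockout and Slc39a4 0.021 for the interaction. The cause was not tested.

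Same-numbered libraries of 2 groups correlated between -0.142 and 0.414 in their deviations from group means, and not every library correlated best with its own number, so the numbers were not taken as pairs. With the replicate block, 6 members were called for Tsc1 loss after ethanol, against 4 without it, with Mt1 (-2.18, adjusted p = 0.0313) and Slc30a10 (-0.98, adjusted p = 0.0231) added. Mt1 for ethanol in the wild type was then 5.17 (adjusted p = 0.000905). The difference between groups in the Mt1 to Mt2 log2 ratio ranged with left-out libraries between 0.65 and 0.91 for Tsc1 loss after ethanol and -1.55 and -0.44 on the control diet. For ethanol this difference ranged between -3.05 and -1.95 in the wild type and -0.86 and -0.58 in the knockout.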
